A study of Mus musculus with 22 samples.

Results

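MHC class II presentation genes were followed in liver tumours and liver as a group of 8: the antigen-binding chain genes H2-Aa, H2-Ab1 and H2-Eb1, the peptide-exchange chain genes H2-DMa and H2-DMb2, the invariant chain gene Cd74, the transactivator gene Ciita and the protease gene Ctss. A spot was assigned to the group when its symbol in the platform annotation, or the current form of that symbol, was one of these names. Of the 8 genes, 6 had a named spot, with 8 spots among them, out of 16896 genes with a named spot on the array. H2-Ab1 and H2-Eb1 had no named spot and were not analysed here. All 6 genes with a spot passed the filter on missing values, and 18175 features passed it in all.

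MHC class II molecules display peptides from engulfed material to CD4 T cells. An alpha and a beta chain assemble in the endoplasmic reticulum around the invariant chain, which blocks the groove and routes the complex to endosomes, where proteases including cathepsin S trim it to a fragment called CLIP and the DM heterodimer exchanges CLIP for antigen peptide. The transactivator Ciita does not bind DNA itself but is recruited by RFX, NF-Y and CREB proteins at the shared promoter elements of these genes, and it is induced by interferon gamma in many cell types. In liver, B cells, dendritic cells, Kupffer cells and other macrophages are the usual sources of class II, and hepatocytes normally make little of it.

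The study compared hepatocellular carcinomas on spotted arrays with 2 dye channels. The 6 IkB-SR tumours (replicates 3, 4, 6, 8, 9 and 10) came from mice with both Mdr2 alleles knocked out that also carried the IkB super-repressor, an inhibitor of NF-kB signalling. According to the labels, its tetracycline-regulated promoter was driven by a transactivator under a hepatocyte-specific C/EBP promoter. The 4 Mdr2-KO tumours (replicates 1, 2, 5 and 7) lacked Mdr2 (Abcb4), which exports phospholipid from hepatocytes to bile, and carried no super-repressor, so both tumour groups shared the knockout and its chronic cholestatic hepatitis. The 1 wild-type liver was described as being of the same background. The labels give the background as mixed and the sex as unknown, and give no age. The stage field of the liver reads as carcinoma, and its extraction protocol speaks of skin; both entries were set aside. The series text counts 4 and 6 individual mice. Each RNA went on 2 arrays of opposite dye orientation, paired with a universal reference pool of mouse RNA. Values are the deposited log ratios, averaged over the 2 arrays and taken to be log2 of sample over reference. Neither the base nor the direction is stated in the sources used here. A value of 1 would then be 2 times the reference pool. Because each gene is measured against its own level in that pool, values of different genes cannot be ranked against each other.

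Several samples stood apart and bear on every value given here. The spread of the dye difference across spots separated 2 sets, called dye batches here although the labels name no batch. Batch 1 (SD of the difference 0.216 to 0.305) held IkB-SR tumours 3, 4, 9 and 10 with Mdr2-KO tumours 1 and 2, while batch 2 (0.662 to 0.758) held IkB-SR tumours 6 and 8, Mdr2-KO tumours 5 and 7 and also the liver. Nfkbia, the gene of the targeted inhibitor IkB-alpha, lay between 1.69 and 3.11 in 5 IkB-SR tumours and at 0.0027 in the library labelled IkB-SR replicate 8, against 0.038 to 0.30 in Mdr2-KO tumours and 0.086 in wild-type liver. Eif2s3y, a Y-linked gene, was high (1.64 to 2.46) in IkB-SR tumours 6, 8 and 9 and at 2.33 in wild-type liver, and low (-4.01 to -2.98) in the other tumours, Mdr2-KO tumours included. The hepatocyte markers (10 of 10 measured, among them Alb and Ttr) averaged 5.31 to 6.09 in IkB-SR tumours, 5.00 to 5.51 in Mdr2-KO tumours and 5.51 in wild-type liver. The number of arrays limits the precision, and intensities were not analysed here.

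The proximal promoters of class II genes carry the elements that recruit Ciita, so those of the chain genes H2-Aa and H2-DMb2 are shown beside that of Ctss, whose window held no Y box core. Neither of the 2 H2-DMa windows, which are not printed, held it. Those windows begin at chr17:34122582 and chr17:34125268, inside the span listed for the gene. That span begins at 34119693, and the sequence around its start was not searched. The sequences run 5′ to 3′ from 250 bases before the start site to 50 after it (RefSeq, GRCm38.p6), and capitals mark the Y box core TGATTGG, the inverted CCAAT box bound by NF-Y, or in Ctss the interferon-stimulated pattern (GAAA, any 2 bases, GAAA). H2-Aa lies at chr17:34287774-34288073 on the minus strand, H2-DMb2 at chr17:34144999-34145298 on the plus strand and Ctss at chr3:95526536-95526835 on the plus strand.
H2-Aa: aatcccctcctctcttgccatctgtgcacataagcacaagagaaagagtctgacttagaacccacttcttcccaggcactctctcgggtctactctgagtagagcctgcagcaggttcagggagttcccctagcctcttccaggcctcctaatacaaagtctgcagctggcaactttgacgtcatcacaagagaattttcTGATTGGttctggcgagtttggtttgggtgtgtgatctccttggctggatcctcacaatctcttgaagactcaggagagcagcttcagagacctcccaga
H2-DMb2: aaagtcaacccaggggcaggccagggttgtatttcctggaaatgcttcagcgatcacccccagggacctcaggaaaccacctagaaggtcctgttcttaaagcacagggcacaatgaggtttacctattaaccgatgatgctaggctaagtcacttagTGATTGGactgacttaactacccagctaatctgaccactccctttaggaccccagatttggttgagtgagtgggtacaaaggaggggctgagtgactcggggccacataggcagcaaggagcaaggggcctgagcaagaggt
Ctss: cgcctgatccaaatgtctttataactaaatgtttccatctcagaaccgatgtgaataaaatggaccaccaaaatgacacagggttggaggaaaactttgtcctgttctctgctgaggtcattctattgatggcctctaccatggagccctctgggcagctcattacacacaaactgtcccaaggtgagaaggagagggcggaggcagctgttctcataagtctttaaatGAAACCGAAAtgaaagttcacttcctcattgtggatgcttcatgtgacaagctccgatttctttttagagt

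The Y box core began 50 bases before the start site in H2-Aa and 92 bases before it in H2-DMb2. It began 61 bases before the start site in H2-Eb1, whose window is not printed. The H2-DMa windows also held no match to the X box, CREB, interferon-stimulated or STAT patterns. Both strands were searched, and 7.82% of 32851 promoter windows held the core. H2-Aa also held the palindrome TGACGTCA, a CREB element present in 1.79% of windows, 74 bases before its start site. H2-Eb1 held an X box pattern, the RFX element (AG, any base, AAC, any 2 bases, ATG), 92 bases before its start site, and 0.895% of windows held that pattern. The interferon-stimulated pattern in Ctss began 21 bases before its start site and was held by 3.44% of windows. An NF-kB pattern (GGG, any 5 bases, CC) matched in H2-Aa, 1 of the 2 H2-DMa windows, H2-DMb2 and H2-Eb1, and likewise in 50.8% of all windows. TTCNNNGAA, the STAT pattern, matched in H2-DMb2 at 218 bases before its start site and in 8.30% of windows. No window of Cd74, H2-Ab1 or Ciita was examined for matches, so the patterns are not known for these genes. A match is a match of letters and no evidence of binding.

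Across the tumours, class II genes averaged lower in IkB-SR than in Mdr2-KO tumours, but no member passed the test. All 6 measured members had a difference below 0, where 56.7% of all features had one, and the median over the members was -0.55, against -0.02 over all features. None of the 6 had an adjusted p under 0.05 (limma with Benjamini-Hochberg over all features), and the share of all 18175 features with one was 0.0%. At an unadjusted p under 0.05, 3 members were lower (H2-DMb2, Cd74 and Ciita), against 9.34% of all features. That share depended on scaling: 548 features were higher and 1698 lower at this level with the values as deposited, and 1122 were higher and 992 lower after quantile normalization. In 0 of the 6 members did every IkB-SR tumour lie below every Mdr2-KO tumour, as 2.56% of all features did. Without the library labelled IkB-SR replicate 8 the median over the members was -0.72.

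**Figure D1:**
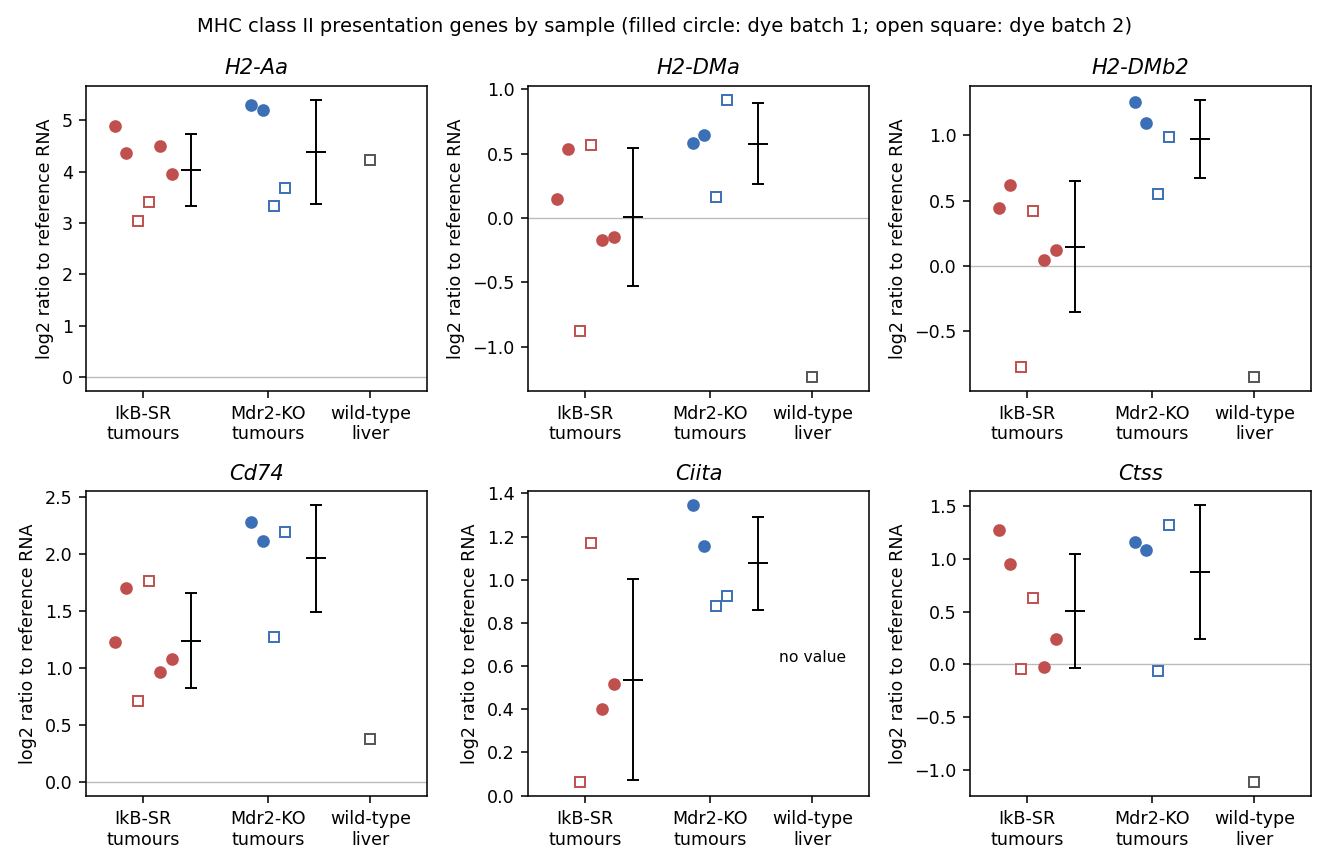
Log2 ratio to the reference RNA (vertical axis) of the 6 measured class II presentation genes, with 1 point per sample for IkB-SR tumours, Mdr2-KO tumours and wild-type liver from left to right. Filled circles are dye batch 1, open squares dye batch 2, and the black marks are group means with 1 SD. The IkB-SR and Mdr2-KO points overlap in every panel, and H2-DMa, H2-DMb2, Cd74 and Ctss lie above the single liver in all 10 tumours.

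The regulator was measured least completely. Ciita (chr16:10480014-10531064, GRCm38.p6, under the older symbol C2ta) encodes the master coactivator of class II transcription. It had 2 spots, of which one carried values on only 4 of 12 IkB-SR arrays and was left out of the test. Where both arrays had a value, that spot read -0.29 in IkB-SR tumour 3, against 0.51 and 0.25 in Mdr2-KO tumours 1 and 2. On the other spot, values were 0.061, 0.40, 0.52 and 1.17 in IkB-SR tumours 6, 9, 10 and 8, against 1.35, 1.16, 0.88 and 0.92 in Mdr2-KO tumours 1, 2, 5 and 7. On this spot no value on both arrays was present for IkB-SR tumours 3 and 4 or for the liver. Of the IkB-SR tumours measured on it, 3 lay below all Mdr2-KO tumours and tumour 8 lay among them. The Cy3 and Cy5 arrays of IkB-SR tumour 8 disagreed, at 1.71 and 0.63. Ciita averaged 0.54 ± 0.46 in IkB-SR tumours (SD, n = 4) and 1.08 ± 0.22 in Mdr2-KO tumours (SD, n = 4). The difference of -0.54 (SE 0.23) had an adjusted p of 0.400 (limma) and an exact permutation p of 0.114, 2-sided over 70 splits, where 0.0286 is the smallest possible.

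H2-Aa (chr17:34282744-34287823) encodes the alpha chain of the I-A molecule, and it spread most among the tumours of the 6 members. It lay at 3.04, 4.16 and 4.90 (lowest, median and highest) in IkB-SR tumours, against 5.31, 5.21, 3.34 and 3.69 in Mdr2-KO tumours 1, 2, 5 and 7 and 4.23 in wild-type liver. In dye batch 1 all 6 tumours lay at 3.95 or above, and in batch 2 all 4 lay at 3.69 or below, in both groups. H2-Aa averaged 4.03 ± 0.70 in IkB-SR tumours (SD, n = 6) and 4.39 ± 1.02 in Mdr2-KO tumours (SD, n = 4). The difference of -0.36 (SE 0.49) had a 95% interval from -1.44 to 0.73, an adjusted p of 0.901 (limma) and an exact permutation p of 0.50. Within batches it was -0.83 in batch 1 and -0.29 in batch 2, with the batch as a block -0.59 (adjusted p 0.253, limma), and with Eif2s3y as a covariate 0.14. Single tumours moved it: it was -0.047 without Mdr2-KO tumour 1, -0.082 without Mdr2-KO tumour 2, -0.71 without Mdr2-KO tumour 5, -0.59 without Mdr2-KO tumour 7, -0.16 without IkB-SR tumour 6 and -0.23 without IkB-SR tumour 8.

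The H2-Aa pattern was set beside H2-Ea, the alpha chain gene of the I-E molecule, whose transcript some laboratory strains lack. H2-Ea lay at 4.34 in IkB-SR tumour 3 and between 1.05 and 1.75 in the other 5 IkB-SR tumours, against 5.23, 4.87, 2.08 and 2.20 in Mdr2-KO tumours 1, 2, 5 and 7 and 4.04 in wild-type liver. IkB-SR tumour 3, Mdr2-KO tumours 1 and 2 and the liver thus held the 4 high values, with a wide gap to the other samples. The same 3 tumours had the 3 highest H2-Aa values. The SD of H2-Ea over the tumours, 1.55, was larger than that of 99.8% of features. H2-Ea differed by -1.59 (SE 0.81) between IkB-SR and Mdr2-KO tumours, with an adjusted p of 0.483 (limma) and an exact permutation p of 0.119. The labels give no haplotype, and strain or haplotype was not tested.

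**Figure D2:**
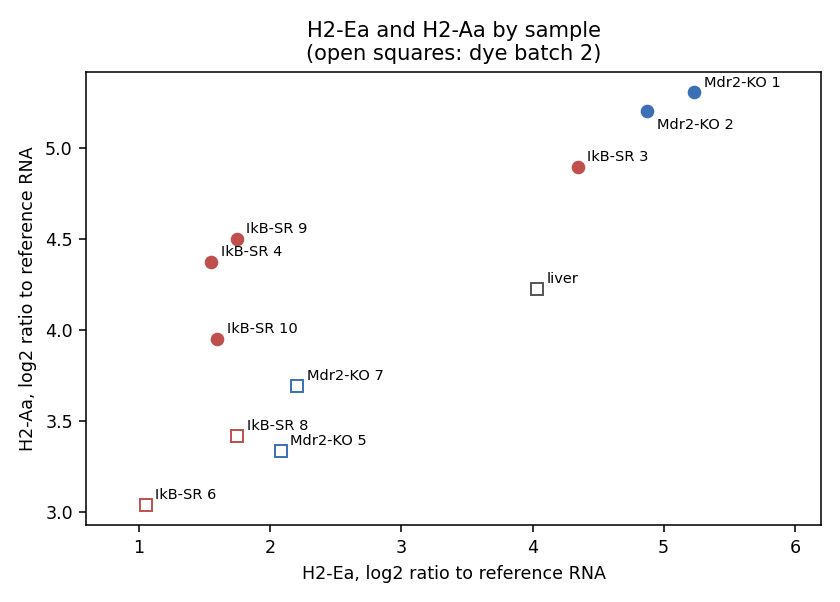
H2-Ea (horizontal axis) against H2-Aa (vertical axis), both as log2 ratios to the reference RNA, with 1 point per sample and open squares for dye batch 2. IkB-SR tumour 3, Mdr2-KO tumours 1 and 2 and the wild-type liver lie at 4.04 or above on H2-Ea, and all other tumours at 2.20 or below.

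Cd74 (chr18:60803849-60812652) encodes the invariant chain, the chaperone of newly made class II molecules, and its mean was lower in IkB-SR tumours. It lay at 0.71, 1.16 and 1.77 (lowest, median and highest) in IkB-SR tumours, against 2.28, 2.11, 1.27 and 2.19 in Mdr2-KO tumours 1, 2, 5 and 7 and 0.38 in wild-type liver. The groups overlapped: 4 of 6 IkB-SR tumours lay below the lowest Mdr2-KO tumour, number 5, which stood well below the other 3. Cd74 averaged 1.24 ± 0.42 in IkB-SR tumours (SD, n = 6) and 1.96 ± 0.47 in Mdr2-KO tumours (SD, n = 4). The difference of -0.72 (SE 0.26, 1.65-fold lower, 95% interval -1.30 to -0.14) had an adjusted p of 0.299 (limma) and an exact permutation p of 0.0429, where 0.00476 is the smallest possible over 210 splits. It was -0.95 in dye batch 1, -0.49 in dye batch 2 and -0.57 with Eif2s3y as a covariate (adjusted p 0.536, limma).

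The 2 spots of Cd74 differed in scale. On the first, values lay between 0.51 and 1.37 in IkB-SR tumours, against 0.88 to 1.64 in Mdr2-KO tumours and 0.24 in wild-type liver. On the second they lay between 0.91 and 2.35 in IkB-SR tumours, against 1.66 to 3.13 in Mdr2-KO tumours and 0.53 in wild-type liver. The second spot read higher in all 11 samples, by 0.031 to 1.88, and the spots correlated with an r of 0.887 over those samples, which share the RNA and arrays. The first spot gave a difference of -0.37 with an adjusted p of 0.479 and an exact permutation p of 0.110. On the second the difference was -1.07 (2.11-fold lower), with an adjusted p of 0.258 (limma) and an exact permutation p of 0.0381. Both were below 0, and their average is the value given for the gene.

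**Figure D3:**
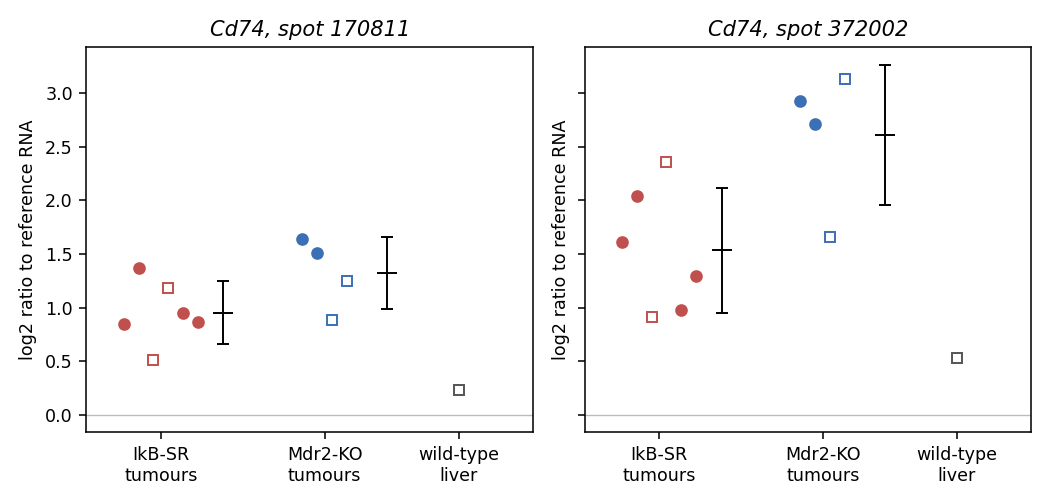
Log2 ratio to the reference RNA (vertical axis) on each of the 2 Cd74 spots, with 1 point per sample for IkB-SR tumours, Mdr2-KO tumours and wild-type liver from left to right (open squares are dye batch 2, black marks the group mean with 1 SD). The second spot spans 0.91 to 3.13 over the tumours and the first 0.51 to 1.64, and the groups overlap on both.

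Ctss (chr3:95526786-95556405) encodes cathepsin S, the protease that makes the last cuts of the invariant chain. It lay at -0.041, 0.44 and 1.27 (lowest, median and highest) in IkB-SR tumours, against 1.16, 1.08, -0.066 and 1.33 in Mdr2-KO tumours 1, 2, 5 and 7 and -1.12 in wild-type liver. Mdr2-KO tumour 5 was the lowest of all tumours, and the groups overlapped throughout. The difference of -0.37 (SE 0.34) had an adjusted p of 0.792 (limma) and an exact permutation p of 0.329. It was -0.68 without Mdr2-KO tumour 5, -0.22 without Mdr2-KO tumour 7 and 0.061 with Eif2s3y as a covariate.

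The peptide-exchange genes were measured in every tumour. H2-DMb2 (chr17:34143229-34151553), the beta chain of the DM heterodimer, lay at -0.77, 0.27 and 0.62 (lowest, median and highest) in IkB-SR tumours, against 1.25, 1.09, 0.55 and 0.99 in Mdr2-KO tumours 1, 2, 5 and 7 and -0.85 in wild-type liver. Of the 6 IkB-SR tumours, 5 lay below every Mdr2-KO tumour, and tumour 4 exceeded Mdr2-KO tumour 5 alone. H2-DMb2 averaged 0.15 ± 0.50 in IkB-SR tumours (SD, n = 6) and 0.97 ± 0.30 in Mdr2-KO tumours (SD, n = 4). The difference of -0.82 (SE 0.26, 1.77-fold lower, 95% interval -1.40 to -0.25) had an adjusted p of 0.235 (limma) and an exact permutation p of 0.0190. It was -0.86 in dye batch 1 and -0.95 in batch 2, and -0.48 with Eif2s3y as a covariate (adjusted p 0.550, limma).

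H2-DMa (chr17:34119693-34139101), the alpha chain of DM, followed its partner across the tumours (r 0.922 over 10 tumours). It lay at -0.88, -0.0011 and 0.57 (lowest, median and highest) in IkB-SR tumours, against 0.58, 0.65, 0.16 and 0.92 in Mdr2-KO tumours 1, 2, 5 and 7 and -1.24 in wild-type liver. Of the 6 IkB-SR tumours, 4 lay below every Mdr2-KO tumour, and tumours 4 and 8 lay inside the Mdr2-KO range. In dye batch 2 these are averages of 2 arrays that disagreed. The Cy3 and Cy5 arrays read -0.24 and -1.53 in IkB-SR tumour 6 and 1.28 and -0.15 in IkB-SR tumour 8. They read 0.68 and -0.36 in Mdr2-KO tumour 5 and 1.48 and 0.36 in Mdr2-KO tumour 7. In these tumours the Cy3 array was also the higher for H2-DMb2 and Ctss. H2-DMa averaged 0.0072 ± 0.54 in IkB-SR tumours (SD, n = 6) and 0.58 ± 0.31 in Mdr2-KO tumours (SD, n = 4). The difference of -0.57 (SE 0.28, 1.48-fold lower) had an adjusted p of 0.454 (limma) and an exact permutation p of 0.0667. It was -0.52 in dye batch 1, -0.70 in batch 2 and -0.33 with Eif2s3y as a covariate.

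**Figure D4:**
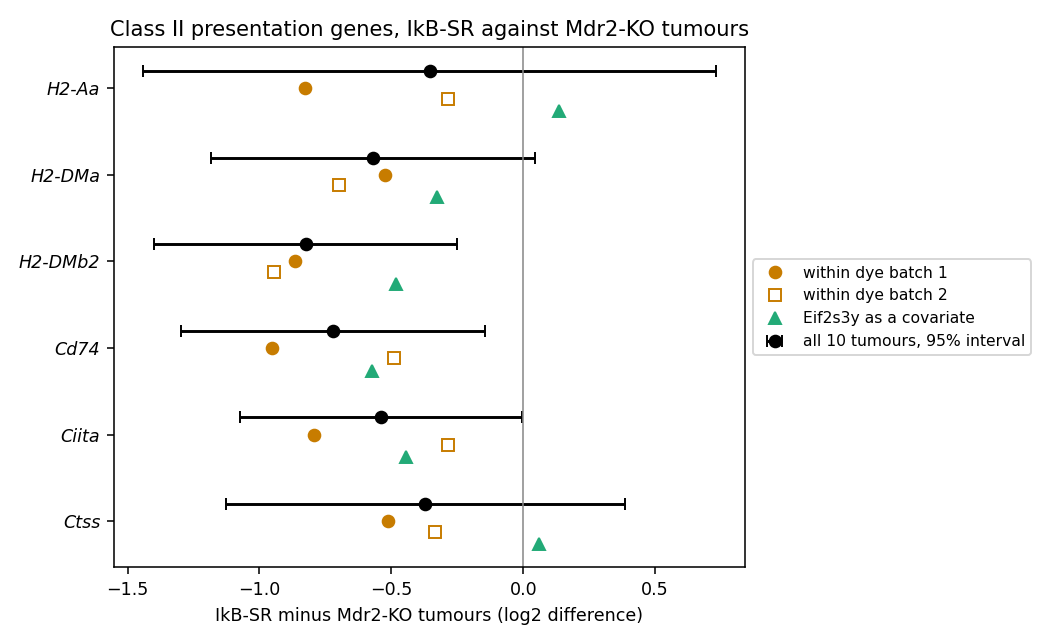
Difference in log2 ratio between IkB-SR and Mdr2-KO tumours (horizontal axis) for each of the 6 measured members, with the 95% interval of the limma fit, beside the differences within dye batch 1 and batch 2 and with Eif2s3y as a covariate. All 6 differences over all tumours lie below 0, from -0.82 for H2-DMb2 to -0.36 for H2-Aa, and 3 intervals (H2-DMb2, Cd74 and Ciita) do not reach 0.

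Against wild-type liver, DM, invariant chain and cathepsin S values were higher in every tumour, though no member passed the test. H2-DMa, H2-DMb2, Cd74 and Ctss lay above the liver in 10 of 10 tumours, and these 4 were among the 5 members with a liver value. The main liver comparisons ran over the 17404 features with a liver value. Of those, 14.3% had every measured tumour at or above the liver. At an unadjusted p under 0.05, 3 members were higher in IkB-SR tumours (6.03% of all features were) and 4 in Mdr2-KO tumours (8.45%). Ctss differed by 1.63 in IkB-SR tumours (3.08-fold, adjusted p 0.369, limma) and by 2.00 in Mdr2-KO tumours (3.99-fold, adjusted p 0.227). H2-DMa differed by 1.24 in IkB-SR tumours (adjusted p 0.412, limma) and by 1.81 in Mdr2-KO tumours (3.52-fold, adjusted p 0.181). H2-DMb2 differed by 1.00 in IkB-SR tumours (adjusted p 0.520, limma) and by 1.82 in Mdr2-KO tumours (3.54-fold, adjusted p 0.152). In H2-DMb2 the lowest tumour, IkB-SR 6, lay only 0.080 above the liver. Cd74 differed by 0.86 in IkB-SR tumours (adjusted p 0.599, limma) and by 1.58 in Mdr2-KO tumours (2.99-fold, adjusted p 0.210).

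H2-Aa lay above the liver in 5 of 10 tumours and below it in 5. The liver is in dye batch 2, and all 4 tumours of that batch lay below it. It differed by -0.20 in IkB-SR tumours (adjusted p 0.950, limma) and by 0.16 in Mdr2-KO tumours (adjusted p 0.958). With the dye batch as a block these were -1.15 in IkB-SR tumours (SE 0.35, adjusted p 0.271, limma) and -0.56 in Mdr2-KO tumours (SE 0.35, adjusted p 0.550). The share of all features past the threshold was 0.167% for IkB-SR tumours against liver and 0.247% for Mdr2-KO tumours against liver. Both comparisons rest on the same 1 liver, which has no spread of its own and was given that of the tumours.

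H2-DMa, H2-DMb2, Cd74 and Ciita varied together from tumour to tumour within their group as well as between groups, and H2-Aa did so less. H2-DMa, H2-DMb2 and Cd74 correlated pairwise with r between 0.916 and 0.923 over 10 tumours, and each with Ciita with r between 0.896 and 0.913 over 8 tumours. With each group centred on its own mean, the first 3 correlations were 0.841 to 0.905. H2-Aa correlated less with the other members, with r between 0.393 and 0.608, and between 0.330 and 0.657 with groups centred. Centred in this way, Ctss correlated with the members other than H2-Aa with r between 0.542 (Ciita) and 0.803 (Cd74). The samples share a reference and the 2 dye batches, so these values are descriptions only. With the 5 members that had values in all tumours each centred on its own mean, their average lay at -1.0, -0.20 and 0.22 (lowest, median and highest) in IkB-SR tumours, against 0.70, 0.61, -0.36 and 0.41 in Mdr2-KO tumours 1, 2, 5 and 7 and -1.13 in wild-type liver. IkB-SR tumour 6 was the lowest tumour in 4 of the 5 members and Mdr2-KO tumour 5 in the other. Mdr2-KO tumour 1 was the highest in 3 and Mdr2-KO tumour 7 in the remaining 2.

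**Figure D5:**
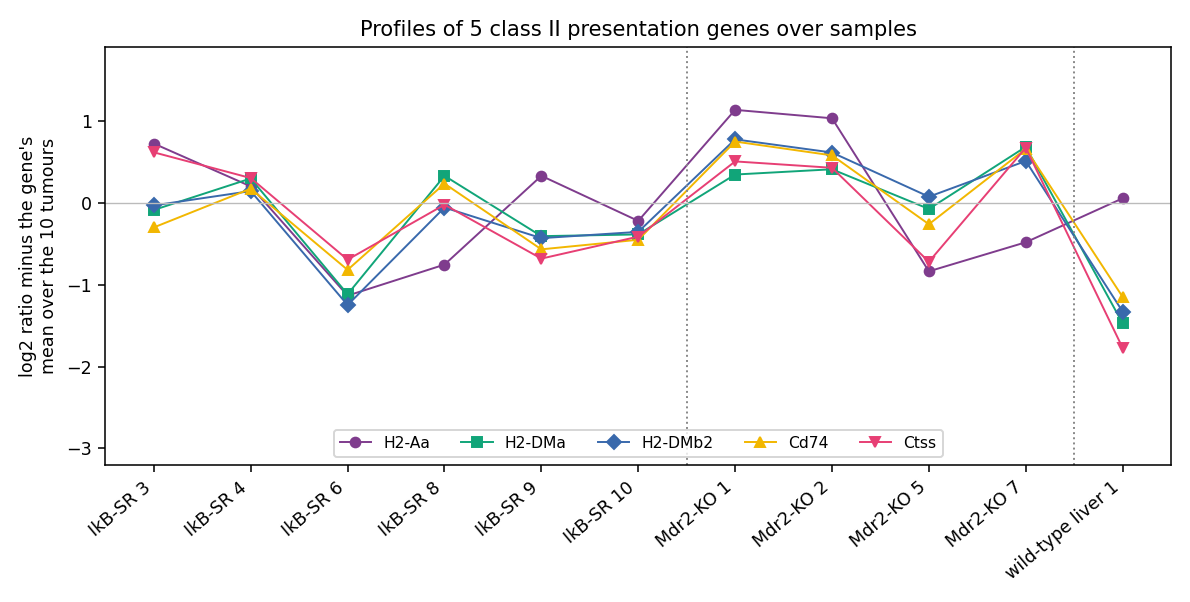
Values of the 5 members measured in every tumour, each centred on its own mean over the 10 tumours (vertical axis, log2 units), by sample with IkB-SR tumours left of Mdr2-KO tumours and the wild-type liver at the right. The members dip together in IkB-SR tumour 6, where their average is -1.0, and their average is highest, at 0.70, in Mdr2-KO tumour 1.

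Genes whose values followed the member average most closely were ranked over the 10 tumours among 10230 genes. Serpinb1a, an inhibitor of leukocyte serine proteases, came first with an r of 0.950. Cyba, a membrane subunit of the phagocyte NADPH oxidase, followed with 0.947. Irf8, a transcription factor of the myeloid, dendritic and B cell lineages, had 0.904, and it averaged 0.54 ± 0.38 in IkB-SR tumours and 1.21 ± 0.29 in Mdr2-KO tumours (SD, n = 6 and 4, adjusted p 0.237, limma). Syk, a kinase downstream of immune receptors, had 0.895. The other 4 of the first 8 were Rpap1 (0.922), which encodes an RNA polymerase II-associated protein, the adhesion molecule gene Jam3 (0.908), the lysosomal transporter gene Atp13a2 (0.908) and Rap1gap (0.897), which encodes a GTPase-activating protein. These are descriptions over tumours that share a reference and the dye batches.

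Other genes of the pathway were read from lists written down beside the members. Of 12 further class II presentation genes, 6 were tested, among them H2-Ea, described above. Of these 6 genes, 5 had a difference below 0 between IkB-SR and Mdr2-KO tumours, H2-Ea (-1.59) included. Of all features, 56.7% had one. For the 6 genes the median was -0.40, and 0 passed the test. The smallest unadjusted p-values belonged to Lgmn, the asparaginyl endopeptidase of endosomes, and Ctsd, the aspartyl protease cathepsin D. Lgmn averaged -0.23 ± 0.25 in IkB-SR tumours and 0.35 ± 0.48 in Mdr2-KO tumours (SD, n = 6 and 4), with a difference of -0.58 (SE 0.21, adjusted p 0.301, limma). Ctsd averaged 0.12 ± 0.13 in IkB-SR tumours and 0.36 ± 0.14 in Mdr2-KO tumours (SD, n = 6 and 4), with a difference of -0.24 (SE 0.092, adjusted p 0.333, limma).

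Ctsd was the only gene in any of these lists past the threshold in any comparison. It was 2.16-fold higher in Mdr2-KO tumours than in wild-type liver, at 0.36 against -0.75 (difference 1.11, SE 0.16, adjusted p 0.0327, limma), and higher in 4 of 4 tumours; 0.184% of all features were called higher there. In IkB-SR tumours it differed from the liver by 0.87 (adjusted p 0.0885, limma) and was higher in 6 of 6. The Mdr2-KO call was lost in 10 of 20 other settings, among them both other scalings and the omission of IkB-SR tumour 8 or 10 or of Mdr2-KO tumour 2, 5 or 7, with a difference between 0.86 and 1.38 and an adjusted p between 0.0064 and 0.567 over all 20.

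Among the factors that act above Ciita and beside it, no gene passed the test. Of 7 promoter factor genes, 6 were tested, 3 differed below 0 and 3 above it, 0 passed and the median was -0.11. Rfx5, a subunit of the X box-binding complex, differed by -0.27 (SE 0.12, adjusted p 0.389, limma), and Creb1 by -0.34 (SE 0.17, adjusted p 0.473). Of 8 genes on the interferon gamma route to Ciita, 6 were tested, all 6 differed below 0, 0 passed and the median was -0.20. Over all features 56.7% differed below 0, with a median of -0.02, and Jak2 and Socs1 here differed by only -0.03 each. Ifngr1, the ligand-binding receptor chain, averaged -0.61 ± 0.24 in IkB-SR tumours (SD, n = 6) and -0.17 ± 0.29 in Mdr2-KO tumours (SD, n = 3), a difference of -0.44 (adjusted p 0.340, limma). Irf1, an interferon-induced factor that acts at the Ciita promoter, differed by -0.32 (adjusted p 0.419, limma).

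Class I presentation genes were read in the same way. Of 12, 7 were tested, all 7 differed below 0, 0 passed and the median was -0.23. Below 0 were also 56.7% of all features, whose median was -0.02, and Tap2 (-0.01) and Psmb9 (-0.05) lay close to 0. Tapbp, the tapasin gene of the peptide-loading complex, lay between -1.47 and -0.33 in IkB-SR tumours, against -0.17 to -0.024 in Mdr2-KO tumours and -0.27 in wild-type liver. Every IkB-SR tumour lay below every Mdr2-KO tumour, as in 2.56% of all features. The Tapbp difference was -0.74 (SE 0.19, 1.67-fold lower, adjusted p 0.161, limma, and exact permutation p 0.0143). Psme1, a proteasome activator subunit gene, differed by -0.44 (adjusted p 0.448, limma).

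Markers of the cells that usually make class II mostly differed with the same sign. In whole tissue, fewer cells of a type and less RNA per cell cannot be told apart. All 14 macrophage and Kupffer cell markers were measured and had a difference below 0 between IkB-SR and Mdr2-KO tumours, as 56.7% of all features had. The median of the 14 markers was -0.79, with 0 past the threshold. The mean of those with a value in every sample lay between 1.61 and 2.03 in IkB-SR tumours, against 2.14 to 2.90 in Mdr2-KO tumours and 1.30 in wild-type liver, so the tumour groups did not overlap. Among single features, 2.56% had every IkB-SR tumour below every Mdr2-KO tumour. The general myeloid markers Cd68, Lyz2 and Cd14 lay closest to 0, at -0.12, -0.19 and -0.33 (adjusted p 0.981, 0.947 and 0.906, limma). The tumour groups overlapped in each of them. Folr2, a folate receptor of tissue macrophages, averaged 1.58 ± 0.31 in IkB-SR tumours and 3.19 ± 0.34 in Mdr2-KO tumours (SD, n = 6 and 4, 3.05-fold lower, adjusted p 0.0528, limma). Timd4, a Kupffer cell receptor for phosphatidylserine, averaged 0.53 ± 0.09 in IkB-SR tumours and 1.32 ± 0.28 in Mdr2-KO tumours (SD, n = 6 and 4, 1.74-fold lower, adjusted p 0.0582, limma).

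The pan-leukocyte markers were all measured (6 of 6) and all differed below 0, where 56.7% of all features did, with a median of -0.59. Their mean lay between -1.59 and -0.87 in IkB-SR tumours, against -1.19 to -0.43 in Mdr2-KO tumours and -1.95 in wild-type liver. Laptm5, a lysosomal membrane protein of blood cells, differed by -0.69 (adjusted p 0.113, limma), and Coro1a, an actin regulator of leukocytes, by -0.85 (adjusted p 0.171). Of the B cell markers 5 of 8 were tested and all 5 differed below 0, where 56.7% of all features did, with a median of -0.09. Ms4a1, Blnk and Cd22 differed by only -0.09, -0.08 and -0.05. The B cell marker mean lay between -2.55 and -1.89 in IkB-SR tumours, against -2.13 to -1.19 in Mdr2-KO tumours and -2.64 in wild-type liver. Pou2af1, a B cell coactivator, differed by -1.35 (2.54-fold lower, adjusted p 0.104, limma) and the B cell receptor gene Cd79b by -0.99 (1.99-fold lower, adjusted p 0.196).

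Dendritic cell markers were thinly covered, with 4 of 10 tested, 2 on each side of 0 and a median of -0.29. Their mean lay between -1.20 and -0.25 in IkB-SR tumours, against -0.73 to -0.32 in Mdr2-KO tumours and -1.41 in wild-type liver. Fscn1, the actin-bundling protein of mature dendritic cells, differed by -0.97 (adjusted p 0.136, limma), and Batf3, a factor of cross-presenting dendritic cells, by -0.69 (adjusted p 0.158). Itgax and Zbtb46 lay above 0, at 0.37 (adjusted p 0.893, limma) and 0.12 (adjusted p 0.834). Among the T cell markers (6 of 8 tested, median -0.08), 3 lay on each side of 0. The T cell receptor component gene Cd3d differed by -0.50 (adjusted p 0.228, limma) and the adhesion receptor gene Cd2 by -0.35 (adjusted p 0.361). Cd3d and Cd2 each had values in only 4 of 6 IkB-SR tumours. Cd3g, Cd4 and Cd3e lay above 0, at 0.35, 0.08 and 0.07.

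Of the tissue cells, endothelial markers had a median of -1.38, with 7 of 8 genes tested and all 7 below 0 (56.7% of all features were). Their mean lay between 0.37 and 1.19 in IkB-SR tumours, against 1.27 to 2.71 in Mdr2-KO tumours and 1.24 in wild-type liver. Lyve1, a hyaluronan receptor of sinusoidal and lymphatic endothelium, differed by -2.02 (4.06-fold lower, adjusted p 0.0760, limma) and the VEGF receptor gene Flt1 by -0.63 (adjusted p 0.104). Cholangiocyte markers (5 of 6 tested, median -0.01) included the secreted phosphoprotein gene Spp1 with a difference of -1.25 (adjusted p 0.251, limma) and the keratin gene Krt19 with one of 0.12 (adjusted p 0.777). Hepatocyte markers had a median of 0.30, with 6 of 10 above 0 and 4 below it. Alb lay at 1.17 (adjusted p 0.121, limma) and the protease inhibitor gene Serpina1a at 0.67 (adjusted p 0.133). The 4 below 0 were Tat (-0.60), Cps1 (-0.22), Apob (-0.08) and Hnf4a (-0.04). No marker in these lists passed the test between the tumour groups, and the part of these cells in the class II values was not tested.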

How the data were processed

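The authors deposited 1 normalized log ratio per spot and array, read here as log2 of sample over reference. The sources used here do not give the image analysis, normalization, filters, base or direction. Between 19576 and 25000 of 37632 spots carried a value on an array. Symbols came from the platform annotation, updated through a RefSeq gene table (GRCm38.p6), and 16753 spots had none.

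Spots were kept with values on both arrays for 4 or more IkB-SR and 3 or more Mdr2-KO tumours, the 2 arrays of a sample and then spots of one symbol were averaged, and 3 group means were fitted to 11 samples with limma 3.58.1 in R 4.3.3. Benjamini-Hochberg adjustment ran over all features, with a threshold of 0.05. Exact permutation tests were 2-sided. Tables and plots were made in Python 3.11.15, and the procedure was tested on simulated data. Dye batches were split at an SD of 0.5.

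Members and lists were chosen with earlier results of these data known. Text names all members, the 2 genes of each list with the smallest p between tumour groups and any past the threshold, 8 genes most correlated with the members, and Nfkbia and Eif2s3y. H2-Ea was chosen after its values were seen. Alternatives covered scaling, dye, filters, weights, batch, Eif2s3y and each tumour left out. Labels state 4 and 6 mice, so p-values measure the spread between these tumours.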

Additional observations from a re-analysis of the deposited data

Results flagged for a closer look

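Cd74 in Mdr2-KO tumour 5 was 1.27, against 2.28, 2.11 and 2.19 in the other Mdr2-KO tumours. Its gap to the nearest of them was 0.833 of the range of the group, above Dixon's critical value for 4 samples. Chance marks about 1 in 20 groups, and 12 groups of members were checked. The same tumour was also the lowest Mdr2-KO tumour in the 5 other members measured, and its cause was not tested.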

How the results depend on the processing

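No member passed the threshold between IkB-SR and Mdr2-KO tumours in any alternative but one: with all 22 arrays fitted with a dye term and the sample as a random block (array correlation 0.0737), 2 members passed, Cd74 and H2-DMb2, each with an adjusted p of 0.0383 (limma). That fit counts the swapped arrays of a sample as nearly independent. In it 1 member passed for IkB-SR tumours against liver (Ctss, 0.0455) and 4 for Mdr2-KO tumours against liver (Cd74, Ctss, H2-DMa and H2-DMb2). Leaving out single tumours gave 0 to 1 members for Mdr2-KO tumours against liver, the 1 being H2-DMb2 without IkB-SR replicate 6 (adjusted p 0.0483), and 0 in the other comparisons. The median member difference stayed below 0 in all alternatives, and lay between -0.72 and -0.39 with single tumours left out.

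Signs turned for H2-Aa and Ctss. With Eif2s3y as a covariate, IkB-SR minus Mdr2-KO was 0.061 for Ctss and 0.14 for H2-Aa, and Mdr2-KO minus liver was -0.75 for H2-Aa. In tumours with low Eif2s3y H2-Aa differed by 0.022. H2-Aa minus liver in IkB-SR tumours was 0.025 after quantile normalization, 0.11 on Cy5 arrays, -1.15 with the batch as a block (no change of sign) and -0.37 (without IkB-SR replicate 3) to 0.0011 (without IkB-SR replicate 6) with single tumours left out. In Mdr2-KO tumours it was -0.19 on Cy3 arrays, -0.56 with the batch as a block, -0.12 without Mdr2-KO replicate 2, and -0.15 (without Mdr2-KO replicate 1) to 0.51 (without Mdr2-KO replicate 5) with single tumours left out. The causes were not tested.

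Features past the threshold between tumour groups numbered 0 as reported (2246 at an unadjusted p under 0.05), 9 after median centring, 11 after quantile normalization, 2 on Cy3 and 1 on Cy5 arrays, 4 with complete spots, 1 by spot, 54 with array weights, 3 with the batch block, 21 in tumours with low Eif2s3y, 14 and 6 within batches 1 and 2, 391 on 22 arrays and 0 to 32 with single tumours left out. Against liver, IkB-SR tumours had 29 as reported, 13 on Cy3 arrays, 44 with the batch block, 305 on 22 arrays and 18 to 34 with single tumours left out. Mdr2-KO tumours had 43 as reported, 28 after quantile normalization, 12 on Cy3 and 24 on Cy5 arrays, 66 without the filter, 110 with array weights, 65 with the batch block, 5 with Eif2s3y, 478 on 22 arrays and 14 to 43 with single tumours left out. No paired analysis was possible because the groups share no replicate numbers.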
